A study of Mus musculus with 7 samples.

Results

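The 33 genes described here belong to the ATF4 response, to serine synthesis and to the cytosolic tRNA synthetases. They were matched by symbol to a list of these genes, out of 46603 gene rows. All 33 were found and all 33 passed the filter on low counts, among 16731 genes tested. Messenger RNA was measured in TRAMP-C1, a single mouse prostate tumour line labelled prostate epithelial, of strain C57BL/6-TgN(TRAMP)8247Ng, in which a transgene drives prostate tumours. The groups were 3 libraries of cells carrying the PAX8-NFE2L2 fusion gene in the lentiviral plasmid Lv229, 3 libraries with the matching empty vector, and 1 library labelled WT. Vector and fusion cells had virus for 12 h and fresh medium for a further 24 h, and the labels of the WT library name no vector. That library carries the same protocol text as the others, so whether it was mock-treated is not known. The fusion joins PAX8, a transcription factor of thyroid and kidney, to NFE2L2, which encodes NRF2, the activator of antioxidant genes. Whether replicates were separate cultures is not labelled, so each p-value reflects the variation among these libraries, which may be technical.

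ATF4 is a transcription factor whose protein is made when eIF2 becomes phosphorylated, a switch called the integrated stress response that follows amino acid shortage, unfolded protein, viral RNA or lack of heme. ATF4, with partners of the C/EBP family, turns on genes that rebuild the amino acid supply: enzymes that make serine, asparagine, proline and cysteine, mitochondrial folate enzymes, amino acid transporters and the synthetases that load amino acids onto tRNA. It also turns on stress regulators such as Ddit3 and Trib3, brakes on growth such as Sesn2, and the secreted hormones Fgf21 and Gdf15. In tumour cells NRF2 is known to raise serine synthesis through ATF4, so these genes are often read together with NRF2 targets.

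ATF4 and its partners bind composite C/EBP-ATF elements, and the matches near the start sites of the genes that the results turn on are shown so that genes with the element can be read beside their values. The core TGATGNAA was searched on both strands of RefSeq promoter windows (build GRCm38.p6, 250 bases before to 50 bases after the start), which exist for 27 of the 33 genes. It stood in 13 of these 27 genes (48.1%), against 1219 of 27025 genes in the whole table (4.51%), or 3.97% of all 32851 windows. Capitals mark the core, each sequence reads 5′ to 3′ on the strand that holds it, and the first 7 are genes that fell in the fit with replicate numbers described below.
Trib3: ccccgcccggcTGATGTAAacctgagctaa
Asns: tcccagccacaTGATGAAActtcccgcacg
Chac1: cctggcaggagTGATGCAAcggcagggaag
Pck2: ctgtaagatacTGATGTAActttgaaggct
Nupr1: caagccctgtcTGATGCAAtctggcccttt
Fgf21: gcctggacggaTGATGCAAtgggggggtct
Tars: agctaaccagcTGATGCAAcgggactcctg
Atf3: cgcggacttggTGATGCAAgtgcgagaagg
Iars: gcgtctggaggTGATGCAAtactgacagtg
These windows lie at chr2:152344028-152344057 (plus strand) for Trib3, chr6:7693214-7693243 (minus) for Asns, chr2:119351038-119351067 (minus) for Chac1, chr14:55540152-55540181 (minus) for Pck2 and chr7:126625562-126625591 (plus) for Nupr1. The others lie at chr7:45615611-45615640 (plus) for Fgf21, chr15:11399655-11399684 (plus) for Tars, chr1:191183425-191183454 (plus) for Atf3 and chr13:49682126-49682155 (minus) for Iars. The core of Tars ends 8 bases before the RefSeq start and that of Asns 16 bases before it. The core of Iars begins 7 bases and that of Trib3 14 bases after the RefSeq start. RefSeq starts can differ from the gene spans given below. By the annotated spans the cores of Asns, Iars, Nupr1 and Atf3 lie inside the gene and those of the other printed genes outside it. Nupr1 and Atf3 are on the minus strand, and their spans begin at chr7:126630861 and chr1:191218039. Their windows therefore lie well inside the gene, away from the annotated 5′ end. Atf3 and Iars are shown because they hold the core and did not pass the test in either direction with all libraries. Vldlr, Gars, Yars and Aars hold it too, Aars in 2 places, and they also did not pass in the edgeR fits with all libraries. Cth, Eif4ebp1, Cars, Nars, Wars and Lars had no promoter window and were not searched. The antioxidant response element core TGACNNNGC, which NRF2 binds with small MAF proteins, stood in Phgdh, Psph, Sesn2, Asns, Aars and Iars, 6 of 27 genes (22.2%), against 14% of all genes and 12.4% of all windows. Asns, Aars and Iars hold both cores, and no match of one overlapped a match of the other. The C/EBP-ATF core stood in 0 of the 5 serine and one-carbon enzymes, 4 of which fell in the fit with replicate numbers. Atf4, Ddit3, Sesn2 and Sars also fell there without the core in their windows. Whether genes with the core fell more often than those without it was not tested. A match is a description of the letters in a window, and binding was not measured.

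The label and the depth were read before the genes themselves. Pax8 lay at 5.57 to 8.53 CPM (gene counts scaled to a library size of 1e+06) in fusion libraries and at 0.0334 to 0.217 CPM in the others, and the NRF2 target Nqo1 at 230 to 343 CPM against 46.1 to 85.6 CPM, so neither went against a label. Nfe2l2 did not separate the groups, at 123 to 145 CPM with the fusion, 111 to 125 CPM with empty vector and 120 CPM in WT cells. Its edgeR adjusted p was 0.89, or 0.14 with replicate numbers in the fit. Keap1 lay at 80.3 to 94.2 CPM with the fusion and 49.3 to 58.7 CPM with empty vector, but at 87 CPM in WT cells. Gene counts ran from 26368182 in fusion replicate 3 to 59597170 in empty vector replicate 1. Empty vector and fusion replicate 3 were sequenced on lanes of their own and had more reads with several alignments (45.323 and 44.783%, against 36.096 to 38.885%). The 7 prostate epithelial markers used here each lay between 0 and 8.06 CPM in every library, with Krt5 at 0 to 0.561 CPM, while the mesenchymal markers Vim, Col1a1 and Col1a2 lay between 1584 and 6039 CPM. The epithelial markers summed to 1.84 to 5.24 CPM with empty vector, 10.4 to 13.7 CPM with the fusion and 1.56 CPM in WT cells. Of the 6 tested 2 rose with the fusion (background 1.69%), or 3 with replicate numbers in the fit (background 7.63%). The 6 mesenchymal markers summed to 7975 to 13450, 8340 to 12575 and 15381 CPM, with 0 and 1 that rose, and immune and endothelial markers to at most 3.37 and 0.941 CPM, with Adgre1 and Cd3e at 0. The part of these markers in the results was not tested, and in bulk RNA fewer cells of a type cannot be told apart from less RNA per cell.

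The comparison of fusion with empty vector asked what the fusion changed in these genes. Cth, an enzyme of cysteine synthesis, was the gene that fell without replicate numbers in the fit, and with the numbers as a block 17 genes fell and 1, Gdf15, rose. The genes that fell in that paired fit included Atf4 itself, the stress regulators Ddit3, Trib3 and Nupr1, 4 of 5 serine and one-carbon enzymes, 4 of 5 other amino acid and carbon enzymes, and 3 of 11 synthetases. Of all tested genes 5.5% fell and 7.63% rose in that fit. The 17 fell to between 39.7 and 79% of the empty vector level. Without the block the median log2 fold change of the 33 genes was -0.39, against 0.01 over all genes tested. Of the 33 fitted values 30 lay below 0, against 8173 of all 16731.

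Without the block, 0 of 33 genes rose and 1 fell (edgeR quasi-likelihood F test with adjustment after Benjamini and Hochberg, threshold 0.05), where 1.69% of all tested genes rose and 0.353% fell. At an unadjusted p under 0.05 there were 7 of the 33 (background 10.9%). DESeq2 called 1 higher and 4 lower (background 3.72 and 1.79%), or 1 and 21 with the block (background 9.6 and 8.22%). The replicate numbers were taken to pair the libraries, because libraries of the same number deviated together. In the paired fit 7.63% of all tested genes rose and 5.5% fell, against 1 and 17 of the 33. Every fusion library lay below every empty vector library for 9 genes (27.3%, background 6.66%) and above for 1 (3.03%, background 9.15%). Within a number, the fusion library was the lower one for 29 of 33 genes in number 1, 30 in number 2 and 28 in number 3, where the shares over all genes were 50, 48.6 and 46.9%. For 26 of the 33 genes (78.8%, background 24.6%) it was lower in all 3 numbers. The paired fit gave 1 higher and 14 lower without number 1 (background 5.01 and 4.2%), 1 and 5 without number 2 (background 1.72 and 0.733%), and 2 and 20 without number 3 (background 11 and 8.08%), whose libraries ran on other lanes. Trib3, Psph, Pck2, Cth and Sesn2 were the 5 that fell without number 2. The paired calls of the other genes that fell ended there. The edgeR adjusted p was then 0.12 for Atf4, 0.088 for Ddit3, 0.1 for Nupr1 and 0.14 for Psat1. For Mthfd2, Chac1 and Fgf21 it was 0.09, 0.11 and 0.16.

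**Figure D1:**
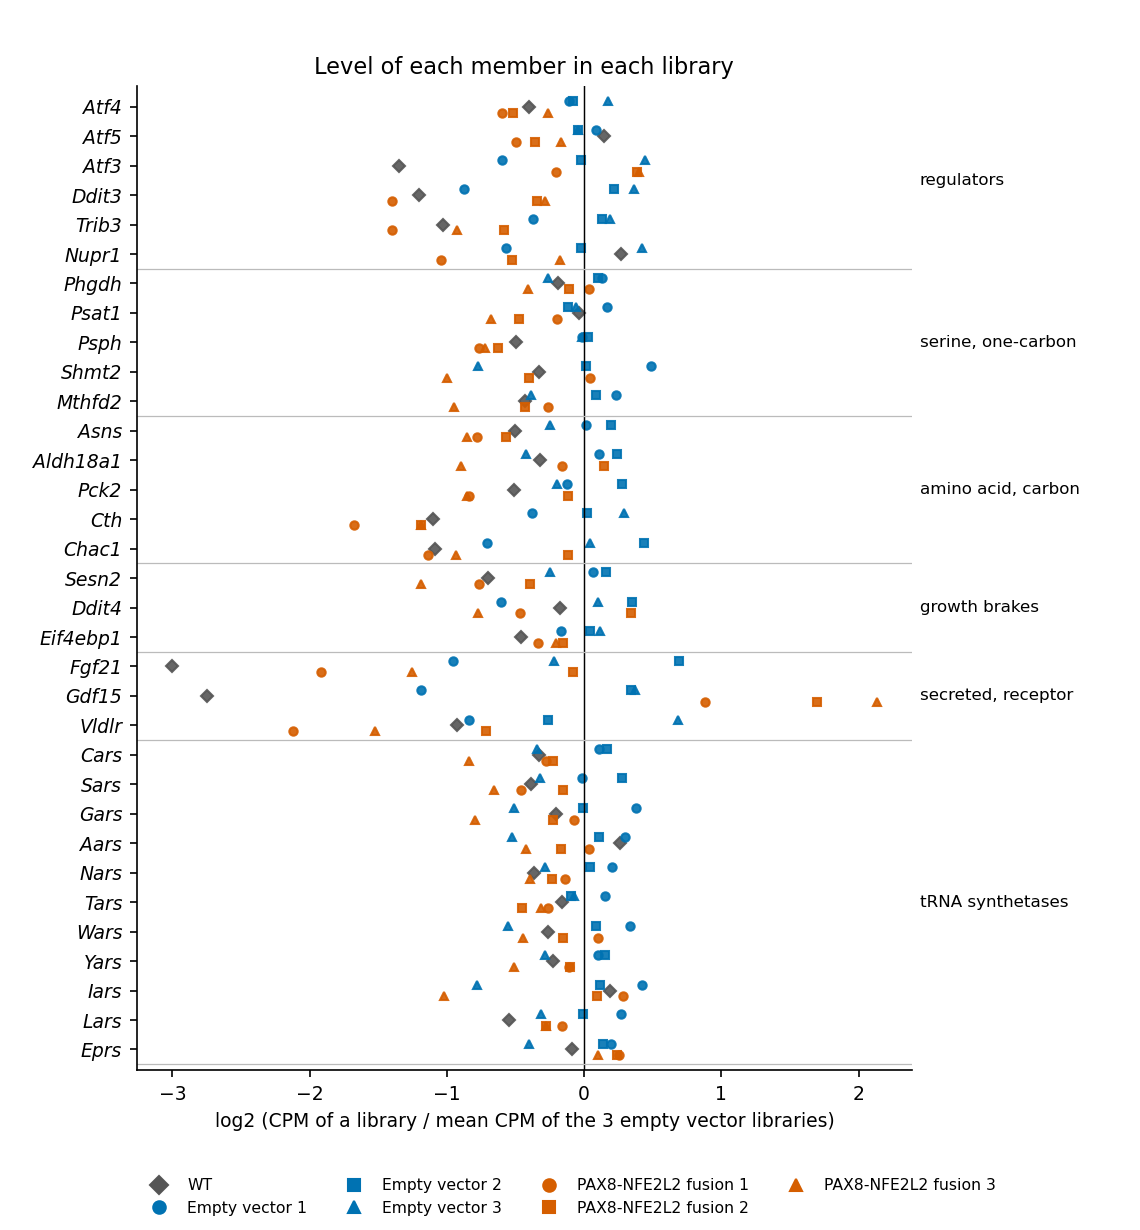
Level of each of the 33 genes in each library, as log2 of its CPM over the mean CPM of the 3 empty vector libraries (horizontal axis), with genes grouped by role (vertical axis). Blue marks are empty vector, orange marks fusion and grey diamonds WT libraries, and the shape gives the replicate number. Most orange marks sit left of the blue mark of the same shape, with Gdf15 as the clearest exception.

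The median gene of the 33 lay 0.07, 0.13 and -0.18 log2 units from the empty vector mean in empty vector libraries 1, 2 and 3, and -0.26, -0.21 and -0.67 in fusion libraries 1, 2 and 3. The 3 fusion libraries were the lower ones, but fusion 1 and 2 lay close to empty vector 3. The WT library, at -0.37, lay among the fusion libraries. Within each group the 3 medians spanned about as much as the groups differed, and the block takes such shared differences between numbers out of the error.

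Among the regulators, Atf4 (ENSMUSG00000042406.7, chr15:80255184-80257541, GRCm38), the transcription factor at the head of the response, lay at 753, 768 and 914 CPM in empty vector libraries 1, 2 and 3. It lay at 535, 566 and 676 CPM in fusion libraries 1, 2 and 3 and at 613 CPM in WT cells. The 2 groups did not overlap, and number 3 was the highest in both. The log2 fold change was -0.45 (SE 0.20, edgeR adjusted p = 0.47) without the block and -0.46 (SE 0.08, edgeR adjusted p = 0.014) with it. Without number 2 the paired call of Atf4 ended (edgeR adjusted p = 0.12). These are messenger RNA values, and ATF4 protein, which is set largely by translation, was not measured.

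Ddit3 (chr10:127290774-127296288), which encodes the stress factor CHOP, lay at 34.7, 74.1 and 81.9 CPM with empty vector, at 24.1, 50.1 and 52.3 CPM with the fusion and at 27.6 CPM in WT cells. Number 1 was low in both groups, so the groups overlapped although each fusion library lay below its empty vector partner. The log2 fold change of -0.58 passed in the paired fit (SE 0.08, edgeR adjusted p = 0.0080) and not without the block (-0.59, adjusted p = 0.75). Ddit3 overlaps Mars on the other strand, and since the strand setting of the counting is not known, reads of such pairs cannot be told apart. The same holds for Atf5, Psph, Shmt2, Pck2, Cars, Aars and Yars, each of which has a neighbour on the opposite strand within its span. On their own strand, Ddit3 overlaps another gene entry of the same name and Aars overlaps Exosc6. No strand setting separates such reads, so the counts of Ddit3 and Aars may be incomplete.

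Trib3 (chr2:152337422-152344032), a pseudokinase that ATF4 and CHOP induce and that restrains them, lay at 71.9, 102 and 106 CPM with empty vector. With the fusion it lay at 35.3, 62.3 and 49 CPM, and in the WT library at 45.6 CPM. Every fusion library lay below every empty vector library, and the WT library lay inside the fusion range. The log2 fold change was -0.93 (SE 0.27, edgeR adjusted p = 0.17) without the block and -0.95 (SE 0.10, edgeR adjusted p = 0.0035) in the paired fit, a fall to 51.8% of the control level. DESeq2 called it too (adjusted p = 0.029).

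Nupr1 (chr7:126623249-126630861), a small stress-induced chromatin protein, lay at 42.7, 62.6 and 85.1 CPM with empty vector, 30.8, 44.1 and 56.3 CPM with the fusion and 76.5 CPM in WT cells. In both groups number 1 was lowest and number 3 highest, the groups overlapped, and the WT library lay above every fusion library. In the paired fit the log2 fold change was -0.52 (SE 0.08, edgeR adjusted p = 0.011). Atf5, a relative of ATF4, had a log2 fold change of -0.34 that did not pass (paired edgeR adjusted p = 0.082), although its fusion libraries (68.8 to 86.2 CPM) lay below its empty vector libraries (93.7 to 103 CPM). Atf3, a stress-induced repressor, went the other way in numbers 1 and 2, with paired log2 ratios of 0.39 and 0.41, and not in number 3 (-0.04). Its paired log2 fold change of 0.25 did not pass with all numbers (edgeR adjusted p = 0.23) and passed without number 3 (edgeR adjusted p = 0.038).

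**Figure D2:**
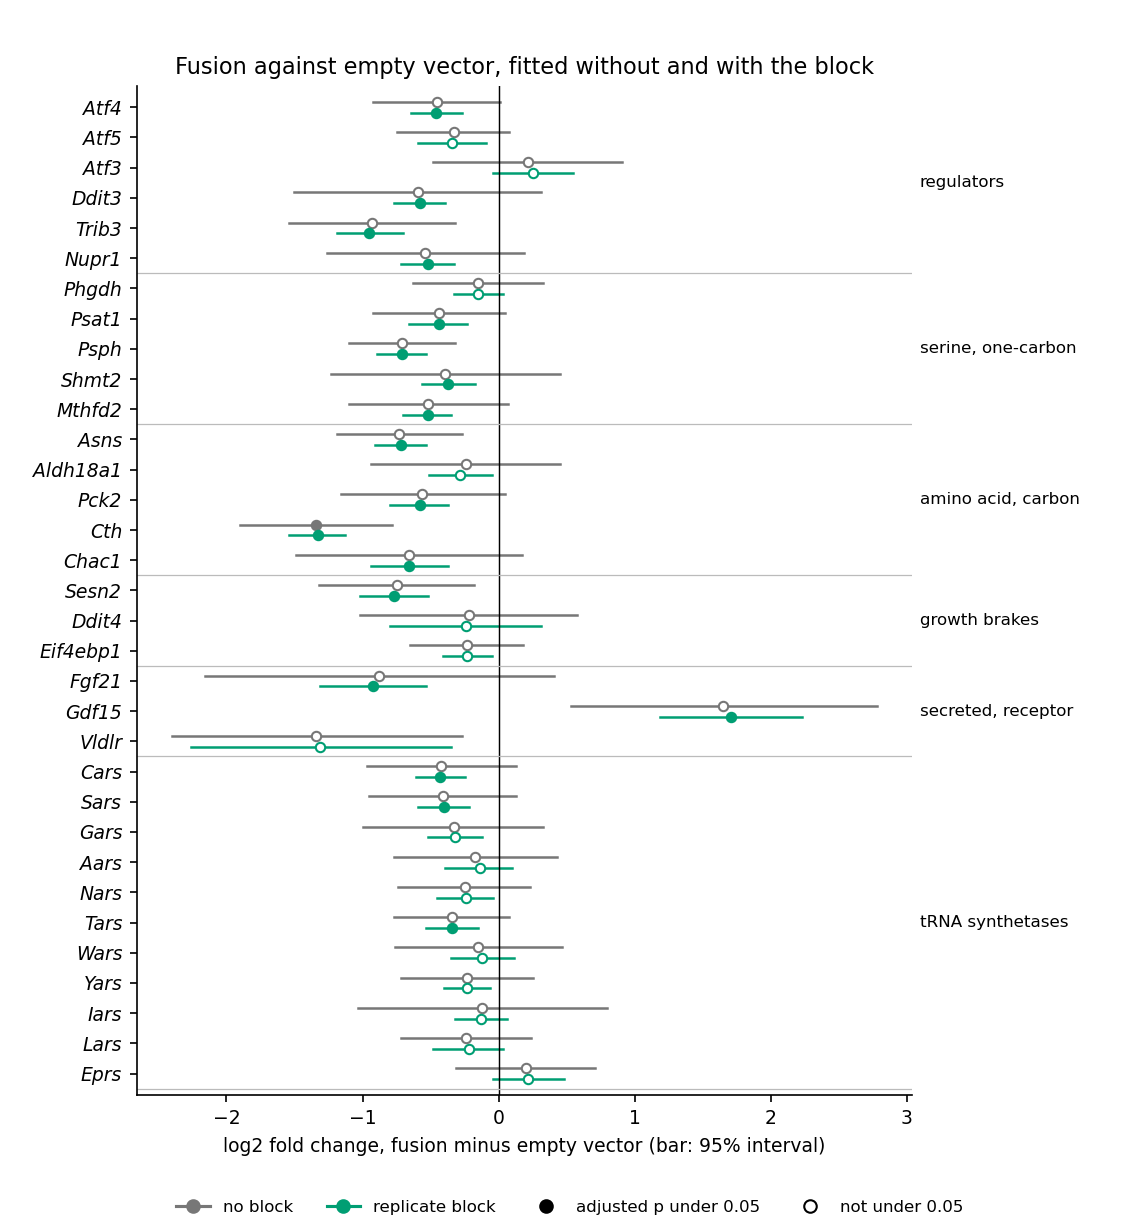
Log2 fold change of fusion against empty vector for each of the 33 genes (horizontal axis), from the edgeR fit without a block (grey) and with the replicate number as a block (green). Bars are 95% intervals and filled points have an adjusted p under 0.05: Cth alone in grey, and 18 genes in green, of which 17 lie left of 0.

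Serine is made from a glycolytic intermediate by Phgdh, Psat1 and Psph in turn, and mitochondrial Shmt2 and Mthfd2 then move its carbon onto folate. Of these 5 enzymes, 0 rose and 4 fell in the paired fit (background 7.63 and 5.5%). All 5 had lower fusion libraries in all 3 numbers (background 24.6%). Psph (chr5:129765558-129787449), the phosphatase of the last step, lay at 104, 107 and 104 CPM with empty vector, at 61.7, 67.8 and 63.7 CPM with the fusion and at 74.3 CPM in WT cells. The libraries of each group were closely alike, and the groups were far apart. Its log2 fold change of -0.71 had an edgeR adjusted p of 0.099 without the block (SE 0.17), of 0.0034 with it (SE 0.07) and of 0.0015 by DESeq2.

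Psat1 (chr19:15904678-15947337), the aminotransferase, lay at 844, 694 and 723 CPM with empty vector, at 658, 543 and 471 CPM with the fusion and at 735 CPM in WT cells. Its groups did not overlap, and the WT library lay inside the empty vector range. Both fits gave a log2 fold change of -0.44 (edgeR adjusted p = 0.54 without the block and 0.025 with it). Phgdh, the dehydrogenase of the entry step, lay at 94.9 ± 13.8 CPM with empty vector and 85.4 ± 13 CPM with the fusion (SD, n = 3), a log2 fold change of -0.15 that did not pass (paired edgeR adjusted p = 0.23, 95% interval -0.33 to 0.03).

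Mthfd2 (chr6:83305691-83325908), the mitochondrial methylene-folate dehydrogenase, lay at 313, 283 and 204 CPM with empty vector, at 222, 198 and 138 CPM with the fusion and at 198 CPM in WT cells. The order of the numbers was the same in both groups, number 3 being lowest, and the groups overlapped. A log2 fold change of -0.52 was fitted (SE 0.07, paired edgeR adjusted p = 0.0080, and 0.55 without the block). Shmt2 (chr10:127517123-127522444), the mitochondrial serine hydroxymethyltransferase, spread more widely, at 358, 259 and 150 CPM with empty vector, 263, 194 and 128 CPM with the fusion and 204 CPM in WT cells. Its paired log2 fold change was -0.37 (SE 0.08, edgeR adjusted p = 0.034, and 0.89 without the block), and its call ended when number 1 or number 2 was left out (edgeR adjusted p = 0.10 and 0.24).

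Cth (ENSMUSG00000028179.12, chr3:157894248-157925077) encodes cystathionine gamma-lyase, which releases cysteine from cystathionine. It lay at 110, 145 and 175 CPM in empty vector libraries 1, 2 and 3, at 44.6, 62.6 and 62.6 CPM in the fusion libraries and at 66.6 CPM in WT cells. No fusion library reached 66.6 CPM and no empty vector library lay under 110 CPM. The log2 fold change was -1.34 (SE 0.24, 95% interval -1.90 to -0.78, edgeR adjusted p = 0.033) without the block and -1.33 (SE 0.09, edgeR adjusted p = 0.00074) with it, a fall to 39.7% of the control level. Leaving out 1 library kept the size between -1.50 and -1.17, but the call without the block held in 1 of 6 such fits (highest edgeR adjusted p 0.13). In the paired fit it held without any number (edgeR adjusted p = 0.00033, 0.011 and 0.000097 without numbers 1, 2 and 3).

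Asns (chr6:7675169-7693254), asparagine synthetase and a classic ATF4 target, lay at 371, 421 and 310 CPM with empty vector, 214, 248 and 204 CPM with the fusion and 260 CPM in WT cells. Its groups did not overlap, and the WT library lay between them. For Asns the log2 fold change was -0.73 (SE 0.20, edgeR adjusted p = 0.15) without the block and -0.72 (SE 0.08, edgeR adjusted p = 0.0038) with it, and DESeq2 called it (adjusted p = 0.016). Without number 2 the paired call of Asns ended (edgeR adjusted p = 0.053).

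**Figure D3:**
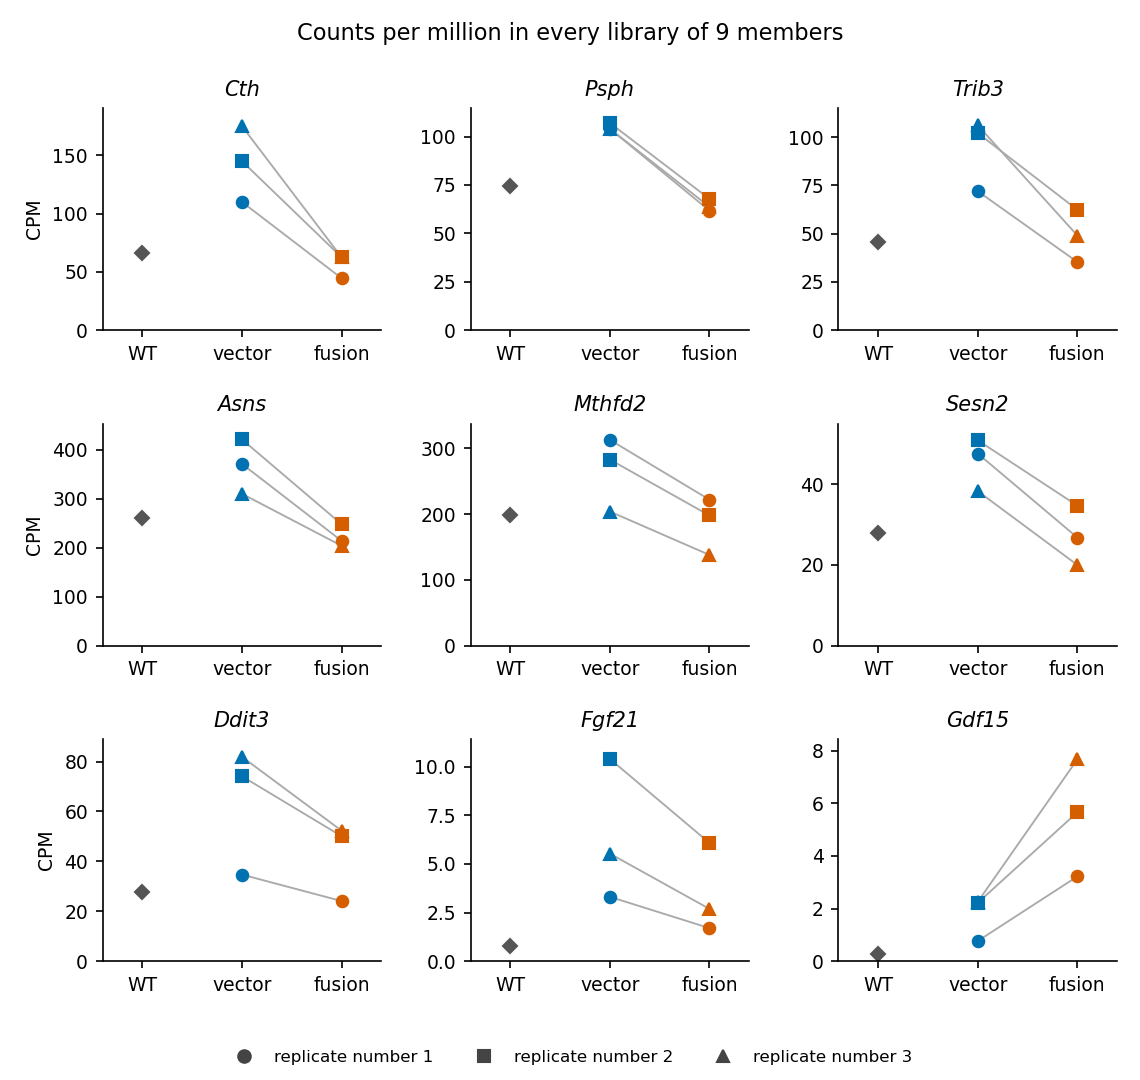
CPM (vertical axes, from 0) of 9 of the genes in the WT, empty vector and fusion libraries, with grey lines joining libraries of the same replicate number and shapes giving that number. The lines fall in all 3 numbers for Cth, Psph, Trib3, Asns, Mthfd2, Sesn2, Ddit3 and Fgf21 and climb in all 3 for Gdf15.

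Pck2 (chr14:55540266-55551242), the mitochondrial enzyme that makes phosphoenolpyruvate, lay at 235, 310 and 223 CPM with empty vector, at 143, 236 and 142 CPM with the fusion and at 180 CPM in WT cells. Number 2 was the highest in both groups, and fusion 2 lay within the empty vector range. The paired log2 fold change was -0.58 (SE 0.09, edgeR adjusted p = 0.011, and 0.52 without the block). Chac1 (chr2:119351229-119354381), which breaks down glutathione, was also highest in number 2 of both groups, at 75.9, 168 and 128 CPM with empty vector, 56.2, 114 and 65 CPM with the fusion and 58.4 CPM in WT cells. Its paired log2 fold change was -0.66 (SE 0.12, edgeR adjusted p = 0.018, and 0.62 without the block). Aldh18a1, which starts proline synthesis, had a paired log2 fold change of -0.28 that did not pass (edgeR adjusted p = 0.11).

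Of the 3 brakes on growth and translation, 1 fell in the paired fit (background 5.5%). Sesn2 (chr4:132492032-132510501), which holds back the growth kinase complex mTORC1 when leucine is short, lay at 47.6, 50.9 and 38.3 CPM with empty vector, 26.8, 34.7 and 20 CPM with the fusion and 28 CPM in WT cells. The groups did not overlap, and the log2 fold change was -0.75 (SE 0.25, edgeR adjusted p = 0.26) without the block and -0.77 (SE 0.10, edgeR adjusted p = 0.0075) with it. Eif4ebp1, a repressor of cap-dependent translation, had a paired log2 fold change of -0.23 (edgeR adjusted p = 0.10). Ddit4, another inhibitor of mTORC1, differed between numbers, with log2 ratios of 0.14, -0.01 and -0.87 in numbers 1, 2 and 3, and its paired value of -0.24 did not pass (edgeR adjusted p = 0.51).

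The secreted factors moved in opposite directions. Gdf15 (ENSMUSG00000038508.7, chr8:70629393-70632456), a stress-induced cytokine that lowers appetite, lay at 0.769, 2.22 and 2.26 CPM with empty vector and at 3.22, 5.66 and 7.67 CPM with the fusion. WT cells held 0.261 CPM, from 13 reads, where a count of 0 would allow up to 0.0568 CPM. Every fusion library lay above every empty vector library, though all were low. The log2 fold change was 1.65 (SE 0.49, edgeR adjusted p = 0.18) without the block and 1.71 (SE 0.21, edgeR adjusted p = 0.0058) with it, or 3.27-fold, and DESeq2 called it (adjusted p = 0.016). The rise of Gdf15 held in the paired fit without any number (edgeR adjusted p = 0.013, 0.042 and 0.0032 without numbers 1, 2 and 3).

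Fgf21 (chr7:45613886-45615490), a hormone of the fasting and stress response, lay at 3.31, 10.4 and 5.53 CPM with empty vector, 1.7, 6.08 and 2.69 CPM with the fusion and 0.802 CPM in WT cells. Number 2 was the highest in both groups, so the groups overlapped while each pair differed by a like ratio (log2 ratios of -0.92, -0.77 and -1.01). The paired log2 fold change was -0.92 (SE 0.16, edgeR adjusted p = 0.017, and 0.73 without the block). Vldlr, a lipoprotein receptor that ATF4 can induce, lay at 106 ± 57.3 CPM with empty vector and 41.9 ± 20.6 CPM with the fusion (SD, n = 3). Its log2 fold change of -1.34, as large as that of Cth, did not pass in either fit (edgeR adjusted p = 0.28, and 0.090 with the block), as its pairs ranged from -0.45 to -2.20.

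Synthetases join each amino acid to its tRNA, and the cytosolic ones are known ATF4 targets to differing degrees. Of the 11 listed, 0 rose and 3 fell in the paired fit (background 7.63 and 5.5%). Fitted values lay below 0 for 10 of the 11 (median -0.23), against 8132 of all 16731 genes. Cars, for cysteine (chr7:143557230-143600090), went from 138 ± 24.7 to 103 ± 22.4 CPM (SD, n = 3 each), a paired log2 fold change of -0.43 (SE 0.07, edgeR adjusted p = 0.016). Sars, for serine (chr3:108424865-108445209), went from 441 ± 90.4 to 332 ± 59.3 CPM, a paired log2 fold change of -0.40 (SE 0.08, edgeR adjusted p = 0.020). Tars, for threonine (chr15:11382301-11399665), was the synthetase whose groups did not overlap. It lay at 501, 422 and 429 CPM with empty vector, 375, 330 and 363 CPM with the fusion and 404 CPM in WT cells (paired log2 fold change -0.34, SE 0.08, edgeR adjusted p = 0.039). Without number 1 the calls of Sars and Tars ended (edgeR adjusted p = 0.063 and 0.12). Without number 2 all 3 paired calls ended (edgeR adjusted p = 0.14, 0.17 and 0.24 for Cars, Sars and Tars). Without the block none of these 3 passed (edgeR adjusted p = 0.66, 0.66 and 0.62).

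The other synthetases of the list, Gars, Aars, Nars, Wars, Yars, Iars, Lars and Eprs, had paired log2 fold changes from -0.32 (Gars, edgeR adjusted p = 0.054) to 0.22 (Eprs, edgeR adjusted p = 0.23). Eprs, which serves glutamate and proline, was the one synthetase of the list with a fitted value above 0. Its empty vector libraries lay at 706, 677 and 467 CPM and its fusion libraries at 735, 729 and 662 CPM, with the largest gap in number 3. In number 3, 7 of the 11 synthetases were lower with the fusion, against 10 in numbers 1 and 2. Over all genes the shares were 46.9% in number 3, 50% in number 1 and 48.6% in number 2. Both libraries numbered 3 held less of most synthetases: Iars lay at 282, 229 and 123 CPM with empty vector and 257, 225 and 104 CPM with the fusion.

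The remaining cytosolic synthetases and their scaffold proteins, 12 genes, had a median paired log2 fold change of 0.03, with 0 that rose and 1 that fell (background 7.63 and 5.5%). That 1 was Mars, for methionine, at 193 ± 45.4 and 157 ± 31.8 CPM (SD, n = 3; paired log2 fold change -0.29, edgeR adjusted p = 0.049), which shares its locus with Ddit3. The call of Mars ended without the block (edgeR adjusted p = 0.86) and, in the paired fit, without number 1 or 2 (edgeR adjusted p = 0.14 and 0.31). The 17 mitochondrial synthetases had a median of 0.03, with 0 called by edgeR with the block or without it and 0 by DESeq2. At an unadjusted p under 0.05 there were 0 in either edgeR fit (background 10.9% without the block and 29.8% with it). The C/EBP-ATF core stood in 5 of the 7 listed synthetases with a promoter window, and in 0 of 9 other cytosolic and 0 of 14 mitochondrial ones. Whether the listed synthetases differed from the others was not tested.

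**Figure D4:**
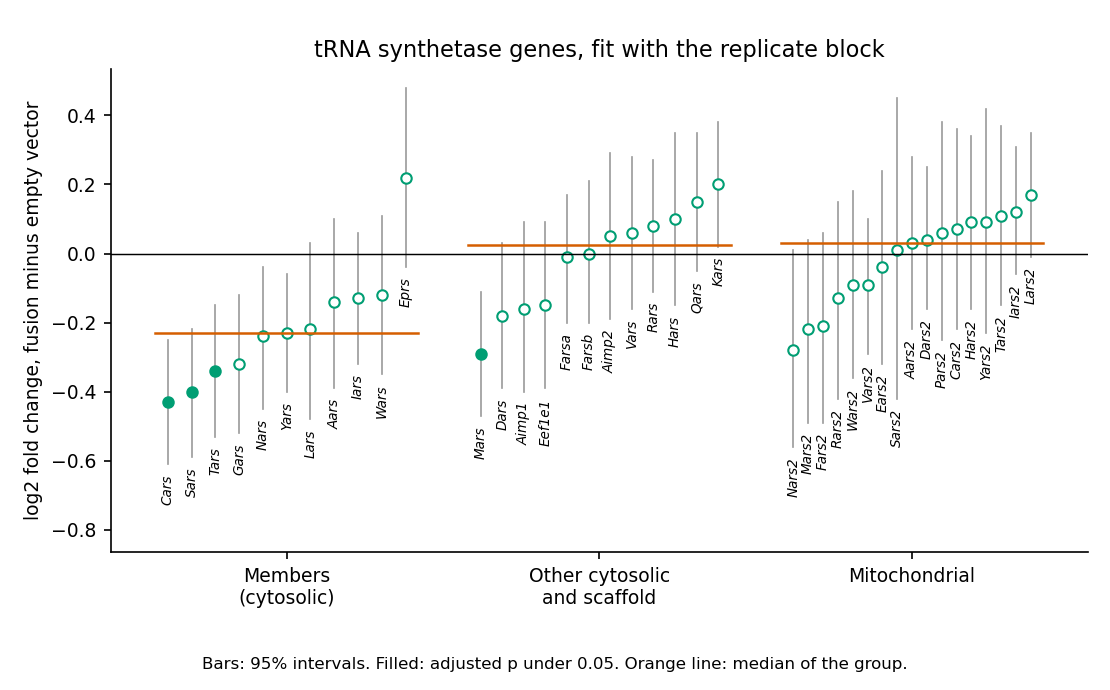
Log2 fold change of fusion against empty vector in the fit with the replicate block (vertical axis) for the 11 listed synthetases, 12 other cytosolic synthetase and scaffold genes and 17 mitochondrial synthetases. Bars are 95% intervals, filled points have an adjusted p under 0.05, and orange lines are group medians, at -0.23, 0.03 and 0.03.

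Compared per kilobase of exon, Atf4 was the most abundant of the 33 with empty vector at 344 CPM per kb, followed by Psat1 (177), Nars (172), Gars (165) and Asns (134). Nars and Gars do not differ beyond their spread, nor does either from Psat1. Gdf15, at 0.945 CPM per kb, was the least abundant, and Fgf21 (6.76), Atf3 (10.1) and Vldlr (10.5) came next without differing beyond their spread. With the fusion Atf4 lay at 251 CPM per kb, Nars at 144, Psat1 and Gars at 131 and Asns at 81.1.

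Other parts of the pathway were read from lists of known genes. The lists are short, and whether their shares differ from the background was not tested. Of 14 genes for eIF2, its kinases, phosphatase subunits and exchange factor, 4 rose and 1 fell in the paired fit (median 0.02, background 7.63 and 5.5%). Impact, which restrains the kinase GCN2, lay at 81.8, 57.2 and 81.6 CPM with empty vector and 135, 105 and 226 CPM with the fusion (paired log2 fold change 1.02, edgeR adjusted p = 0.015, and 0.17 without the block). Gcn1 and Eif2b1 rose too (0.66 and 0.44, paired edgeR adjusted p = 0.0077 and 0.035). Eif2b5, the catalytic subunit of eIF2B, rose (0.40, paired edgeR adjusted p = 0.023), and Ppp1r15b, which guides the phosphatase to eIF2, fell (-0.33, paired edgeR adjusted p = 0.046). Without the block edgeR called 0 of these 14 (edgeR adjusted p = 0.75 for Gcn1, 0.68 for Eif2b1, 0.67 for Eif2b5 and 0.65 for Ppp1r15b). DESeq2 without the block called 1 higher, Impact (adjusted p = 0.036), and 0 lower (background 3.72 and 1.79%). Without number 2 the paired calls of Impact, Eif2b5 and Ppp1r15b ended (edgeR adjusted p = 0.082, 0.16 and 0.23), without number 1 those of Eif2b5 and Ppp1r15b (0.081 and 0.058) and without number 3 that of Ppp1r15b (0.085). Those of Gcn1 and Eif2b1 also ended without number 2 (edgeR adjusted p = 0.064 and 0.21), and that of Eif2b1 without number 1 (0.054).

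Among 12 other serine, glycine and folate enzymes 1 rose and 1 fell in the paired fit (median 0.00, background 7.63 and 5.5%), shares near the background. Aldh1l2, a mitochondrial folate dehydrogenase, lay at 268, 334 and 183 CPM with empty vector and 104, 183 and 102 CPM with the fusion (paired log2 fold change -1.03, SE 0.12, edgeR adjusted p = 0.0050, and 0.21 without the block). Gldc, of the glycine cleavage system, rose from 1.93 ± 0.535 to 4.19 ± 1.34 CPM (1.11, paired edgeR adjusted p = 0.024). Of 12 other ATF4-linked enzymes and factors 1 rose and 4 fell in that fit (median -0.25, background 7.63 and 5.5%). The falls included Jdp2, a repressor of the AP-1 family (-0.74, paired edgeR adjusted p = 0.0032), Pycr1, of proline synthesis (-0.89, 0.024), and Gpt2, a mitochondrial alanine aminotransferase (-0.51, 0.018). By edgeR no gene of these lists passed without the block (edgeR adjusted p = 0.23 for Gldc, 0.11 for Jdp2, 0.53 for Pycr1 and 0.67 for Gpt2). Without the block DESeq2 called 1 higher and 1 lower in the first list, 0 and 1 in the second (background 3.72 and 1.79%). Without number 2 the paired calls of Gldc, Pycr1 and Gpt2 ended (edgeR adjusted p = 0.21, 0.088 and 0.071), as did that of Gldc without number 1 (0.053).

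Of the 9 amino acid transporters linked to ATF4, 3 rose and 1 fell in the paired fit (median -0.06, background 7.63 and 5.5%). Without the block 1 rose (background 1.69%). Slc7a11, the cystine importer and a known target of both ATF4 and NRF2, lay at 135, 84.8 and 126 CPM with empty vector, at 270, 255 and 380 CPM with the fusion and at 78.2 CPM in WT cells. It rose without the block (log2 fold change 1.39, SE 0.26, edgeR adjusted p = 0.037) and with it (1.39, SE 0.14, edgeR adjusted p = 0.0035). Its partner chain Slc3a2 rose in the paired fit from 232 ± 35.6 to 370 ± 52 CPM (0.68, edgeR adjusted p = 0.0069), as did Slc1a4, a carrier of serine and other neutral amino acids, from 91.9 ± 21 to 148 ± 35.5 CPM (0.68, edgeR adjusted p = 0.0057). The calls of Slc3a2 and Slc1a4 ended without the block (edgeR adjusted p = 0.21 and 0.35) and, in the paired fit, without number 2 (0.078 and 0.070). Among 15 genes of the ATF6 and XBP1 branches of the unfolded protein response 1 rose and 2 fell in the paired fit (median -0.03, background 7.63 and 5.5%). These were the chaperone Hyou1 (0.38, paired edgeR adjusted p = 0.023), Herpud1, of protein degradation at the endoplasmic reticulum (-0.49, 0.019), and Xbp1 itself (-0.46, 0.035). Without the block and by DESeq2 0 of these 15 passed, with 1 at an unadjusted p under 0.05 in each. Without number 1 the paired calls of Hyou1 and Xbp1 ended (edgeR adjusted p = 0.16 and 0.067), and without number 2 all 3 did (0.16, 0.075 and 0.074 for Hyou1, Herpud1 and Xbp1).

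Empty vector against WT set cells given the vector beside the library labelled WT. In these genes 29 of 33 fitted values were above 0, against 8573 of all 16731 genes. The median log2 fold change was 0.39 against 0.01 over all genes, but 0 of 33 passed (edgeR adjusted p from 0.91 up, background 0% in both directions). At an unadjusted p under 0.05 there were 5 of the 33 (background 4.46%), or 23 in the paired fit (background 20.2%). The paired fit called 0 (background 0.0359% higher and 0.0837% lower), and DESeq2 called 1 higher, Fgf21 (adjusted p = 0.033, background 0.263%). The WT library lay below every empty vector library for 19 of the 33 (57.6%, background 21.6%) and above every one for 1, Atf5 (3.03%, background 22.7%). The largest fitted values were those of Fgf21, Gdf15, Atf3, Ddit3 and Cth, in that order. The 95% interval ran from 0.77 to 5.23 for Fgf21 and from 0.74 to 4.72 for Gdf15 on the log2 scale, while that of Ddit3 held 0. Atf3, for one, lay at 8.54 CPM in WT cells and at 14.4, 21.5 and 29.6 CPM with empty vector. With 1 WT library its difference from the other groups cannot be told apart from variation between libraries.

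**Figure D5:**
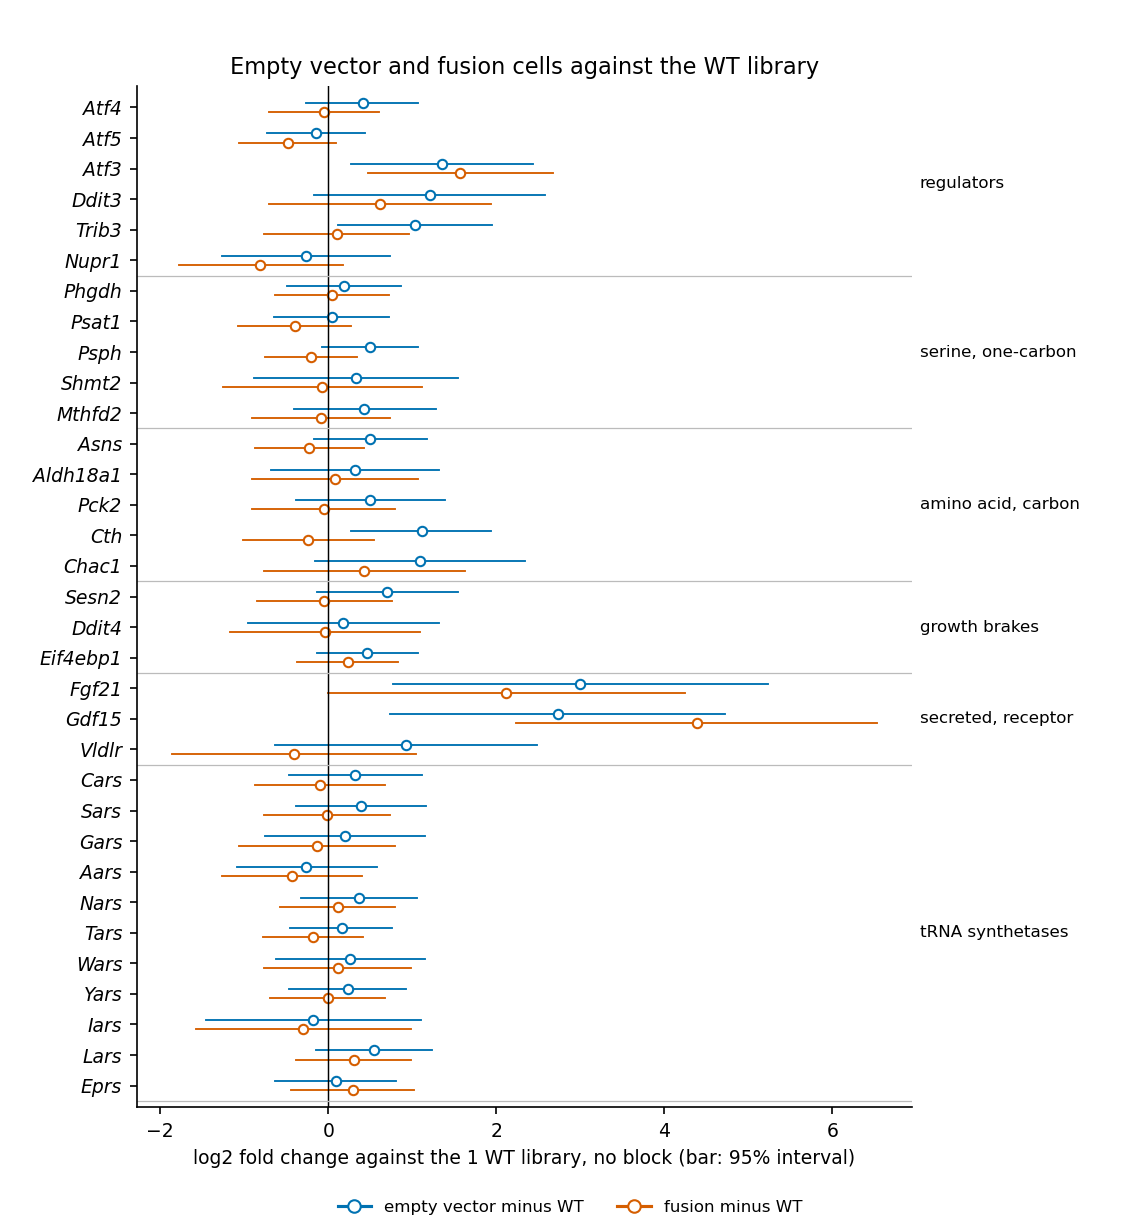
Log2 fold change of empty vector (blue) and fusion (orange) cells against the WT library for each of the 33 genes, from the edgeR fit without a block. Bars are 95% intervals. Most blue points lie right of 0, with a median of 0.39, and the orange points lie around 0, with a median of -0.05; no point passes at an adjusted p of 0.05, and both comparisons use the same WT library.

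Fusion against WT shares its libraries with both comparisons above, so the values are only set side by side. The median log2 fold change of the 33 genes was -0.05 against 0.03 over all genes, and it was 0.10 without fusion replicate 3. Without the block 0 of 33 passed (edgeR, background 0.341% higher and 0.0956% lower), with 2 at an unadjusted p under 0.05 (background 7.67%). The paired fit called 2 higher and 2 lower of the 33 (background 4.57 and 5.25%), shares near the background. Gdf15 (3.46, paired edgeR adjusted p = 0.012) and Atf3 (1.08, paired edgeR adjusted p = 0.030) were above the WT library. DESeq2 called the same 2 higher and 0 lower (background 2.19 and 0.789%), with 3 of 33 at an unadjusted p under 0.05 (background 8.84%), a share near the background. Nupr1 (-1.34, paired edgeR adjusted p = 0.0049) and Cth (-0.59, paired edgeR adjusted p = 0.043) were below it. The paired fit places the WT library, labelled replicate 1, with the other libraries numbered 1, an assumption that 1 library cannot check. The WT library lay within the fusion range for 19 of the 33 genes (57.6%, background 53.6%), a share near the background. For Cth the log2 fold changes without the block were -1.34 for fusion against empty vector, 1.11 for empty vector against WT and -0.24 for fusion against WT.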

How the data were processed

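Gene counts of 7 libraries were used. The authors deposited whole-number read counts for each gene, 1 table per lane (12 tables), and used STAR, HTSeq and build GRCm38 per the submitters' processing notes. Versions, annotation and strand setting: not given in the sources used here. Lanes of 1 library agreed within sampling noise (chi-square 0.978 to 1.01 per degree of freedom) and were summed. Rows naming no gene were left out: reads outside genes were 5.726 to 6.927% and ambiguous reads 1.222 to 1.479% of a library. Reads with several alignments are not counted under a gene, so close paralogs can be undercounted.

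Groups were compared with edgeR 4.0.16 (R 4.3.3): TMM, filterByExpr (minimum count 10), robust quasi-likelihood F test, Benjamini-Hochberg adjustment over 16731 genes, threshold 0.05. Fusion against empty vector used 6 libraries and the WT comparisons all 7, with the lone WT library given the spread of the other groups. CPM use TMM factors (0.944 to 1.037), and log2 ratios of a pair add 0.1 CPM. Libraries of 1 number deviated together from their group means (r = 0.535, 0.488 and 0.459 across genes, which are not independent, for numbers 1, 2 and 3), so the numbers were taken to pair them. This check is the only source of the pairing, and the fit with a replicate block is an alternative. Others were DESeq2 1.42.0, RLE factors, no filter, estimates that are not robust, and leaving out libraries.

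Symbols, positions and exon lengths come from a GENCODE annotation of GRCm38. The 33 genes and the gene lists were chosen with earlier results of these data known. Genes of the 33 that passed with or without the block are given in full. From each other list at most 3 passing genes are named, by smallest p of the fit without the block. Gcn1 and Eif2b1 are named besides these. Counting limits (3 counts for a count of 0) cover counting error only. Some genes of the epithelial marker list are not reported here, and its sums leave them out.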

Additional observations from a re-analysis of the deposited data

How the results depend on the processing

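For fusion against empty vector, 0 genes of the 33 rose and 1 fell without the block. Higher and lower counts were 1 and 17 with the replicate block, 1 and 4 by DESeq2 and, in a fit chosen after seeing the data, 1 and 21 by DESeq2 with the block. With the block they were 1 and 14 without number 1, 1 and 5 without number 2 and 2 and 20 without number 3. Leaving out 1 library or both libraries of a number, with no block, left 0 to 1 lower. RLE factors, no filter, estimates that are not robust and all 7 libraries left the counts at 0 and 1. Over all genes tested, calls were 282 higher and 59 lower without the block, 1276 and 920 with it, and 622 and 300 by DESeq2. For empty vector against WT, DESeq2 called 1 higher (background 0.263%). For fusion against WT, DESeq2 called 2 higher (background 2.19%) and the fit with no filter 1 higher (177 of 27453 genes in all). The replicate block called 2 higher and 2 lower (background 4.57 and 5.25%). The median log2 fold change of the 33 for fusion against empty vector lay between -0.43 and -0.30 in all of these fits. Genes near 0 changed sign in some fits that left out libraries, and none of these values passed. Over those fits Atf3 ranged from -0.01 (without empty vector replicate 1) to 0.50, Aldh18a1 from -0.48 to 0.00 (without fusion replicate 3) and Ddit4 from -0.61 to 0.05 (without replicate 3). Aars ranged from -0.38 to 0.00, Wars from -0.36 to 0.06 and Iars from -0.39 to 0.19. The highest values came without empty vector replicate 1, where Iars was at 0.15, except that 0.19 of Iars came when fusion replicate 3 was left out. With the block and number 3 left out, Ddit4 was at 0.08. The cause of these shifts was not tested. At the depths used, counting error is small for all genes of the 33 but Gdf15 and Fgf21.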
